A study of Mus musculus with 20 samples.

Results

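Of the 20 libraries of the study, 12 belong to the comparison described here: 4 of melb-a cells with the hairpin shHIRA I and 8 of the same cells with a control hairpin, 4 with shLuciferase and 4 with shScramble. They were chosen by treatment label, and the contrast is shHIRA I minus the mean of the control hairpin groups. The melb-a line is an immortal line of mouse melanoblasts, the precursors of melanocytes, labelled wild type in every group. All hairpins were delivered by a 16 h lentiviral infection in the presence of polybrene (8 µg/ml) and selected with 1 µg/ml puromycin, in medium with 10% serum, 10 ng/ml SCF and 40 pM Fgf2, per the labels' protocols. The other 8 libraries, 4 with a further Hira hairpin (shHIRA II) and 4 of parental cells without virus, entered the same model and are cited only where they show how shHIRA I differs. A culture of 1 line transduced with 1 hairpin is a knockdown and not a deletion. Effects of a hairpin on transcripts other than its target cannot be told apart from effects of the target within shHIRA I alone.

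HIRA is the core of a histone chaperone complex, with ubinuclein and CABIN1, that places the histone variant H3.3 into chromatin outside of DNA replication, mostly at active genes, promoters and enhancers. Melanoblasts arise from the neural crest, depend on KIT and its ligand SCF, and turn on the pigment enzymes tyrosinase, TYRP1 and DCT under the transcription factor MITF as they differentiate. The design asks what loss of HIRA does to the transcripts of these cells.

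Library totals ran from 15 to 20.7 M counts, and shHIRA I replicate 3 had the lowest. Its 13 mitochondrially encoded rows held 1.23% of counts, against 5.74%, 9.58% and 6.27% in replicates 1, 2 and 4 and 6.43% to 9.96% in the controls. The mean share was 5.70% ± 3.44 (SD, n = 4) with shHIRA I and 8.10% ± 1.22 (SD, n = 8) in the controls (two-sided exact permutation p = 0.0788, smallest possible 0.00202). Without replicate 3 the difference was -0.91 percentage points (two-sided exact permutation p = 0.364), and without replicate 2 it was -3.69 points (p = 0.00606, the smallest this exact permutation test can give). Replicate 3 also lay more than 1 log2 unit from the mean of the other 3 shHIRA I libraries in 4037 genes (29.8% of those tested), and replicate 2 in 2678 (19.8%). The share was 5.59% to 12.8% in control libraries, with shLuciferase replicate 2 the farthest from its group. Cytosolic ribosomal protein genes held 7.19% of counts in replicate 3 and 3.13% in replicate 2. The part of these differences in the results was not tested, and values are given for single replicates and with these libraries left out.

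Markers of the labelled cell type were present in the controls. Mitf, Pax3, Kit, Dct, Mlana and Tyrp1, regulators and pigment cell genes, all had medians above 100 CPM (counts per 1e6 counts, TMM-normalised). Other defining markers were low or uneven. Ednrb, the endothelin receptor of melanoblasts, did not exceed 0.170 CPM in any library of the comparison. Sox10, a neural crest regulator, was under 1 CPM in 5 of 8 controls and reached 18.3 CPM in the highest, and read 2.20, 0.390, 0 and 0.0495 CPM in shHIRA I replicates 1 to 4. Of 8 fibroblast markers 4 were under 1 CPM in both groups, and their summed level was 67.8 to 163 CPM with shHIRA I against 28.6 to 85.9 CPM in the controls. Summed keratinocyte markers read 10.2 to 23.6 against 15.9 to 35.1 CPM, leukocyte markers 3.41 to 4.13 against 2.24 to 5.35 CPM, and endothelial markers 48.3 to 269 against 91.7 to 139 CPM. In bulk RNA, a change in the share of cells of a type and a change of RNA within cells cannot be told apart.

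Hira, the targeted gene, lies on chr16:18877037-18970309, plus strand in GRCm38. It was at 45.4, 26.6, 41.8 and 33.3 CPM, against 63.7 to 89.8 CPM in the controls with a median of 75.6. The reduction was a log2 fold change of -1.05, SE 0.14, edgeR adjusted p = 5.15e-05, so transcript remained at 48.3% of the control level. All 4 shHIRA I libraries lay under the controls, with replicate 2 the lowest. The deposited estimate shares 43.1% of its 31-mers with the overlapping gene model Gm28539. That row was at 0 in all 4 shHIRA I libraries, against 0 to 11.4 CPM in the controls with a median of 3.44. Summed over both rows, the shHIRA I libraries held 45.4% of the control mean. In shHIRA II cells Hira read 66.8 ± 4.12 CPM (SD, n = 4), and the hairpins differed by log2 0.86, SE 0.16, edgeR adjusted p = 0.00096, so that the transcript was lower with shHIRA I. Among the other members of the complex and of H3.3 supply, 10 were tested and 1 was called, where 19.7% of all genes were called. Asf1a, a chaperone that hands histones to HIRA, rose (log2 fold change of 0.56, SE 0.19, edgeR adjusted p = 0.0416). That call was lost in most refits without 1 library (0.45, edgeR adjusted p = 0.146, with shHIRA I replicate 1 omitted). The subunits Ubn1, Ubn2 and Cabin1 (log2 fold changes 0.50, -0.18 and 0.15) and the H3.3 genes H3f3a and H3f3b (-0.21 and -0.20) did not pass the test.

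Across all 13541 genes tested, 1470 were called higher and 1201 lower with shHIRA I (10.9% and 8.87% of the genes, 19.7% in all; edgeR's quasi-likelihood test, Benjamini-Hochberg adjusted p under 0.05), with a median log2 fold change of 0.05 over all genes. Against shLuciferase alone 6.3% and 5.66%, and against shScramble alone 7.95% and 6.93%, were called higher and lower. On log2(TPM + 1) values, limma called 1670 higher and 831 lower. Of the edgeR calls, 733 higher (5.41%) and 675 lower (4.98%, together 10.4%) were also called in the same direction against each control hairpin separately. All 4 shHIRA I libraries lay above all 8 controls for 625 genes (4.62%) and below them for 612 (4.52%), 9.14% in all. The control hairpins themselves gave 0 called genes by edgeR against each other, 4 by DESeq2 (0.0295%) and 0 by limma. By edgeR 170 genes had an unadjusted p under 0.05 (1.26%), below the share of 0.05 that no difference would give on average. These counts do not show that the control hairpins are alike. Of the genes tested after leaving out shHIRA I replicate 3, 11.1% were called higher and 11.6% lower, and without replicate 2 11.5% and 10.1%. Omitting shLuciferase replicate 2 gave 11.7% and 8.93%, and omitting all 3 libraries 9.85% and 11.1%. The called genes were chosen with these same replicates, so counts by single replicate describe their spread and are no separate support. Of the 1470 called higher, replicates 1 to 4 exceeded every control in 1149, 1169, 1100 and 1190. Of the 1201 called lower they lay under every control in 1096, 883, 973 and 1040.

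**Figure D1:**
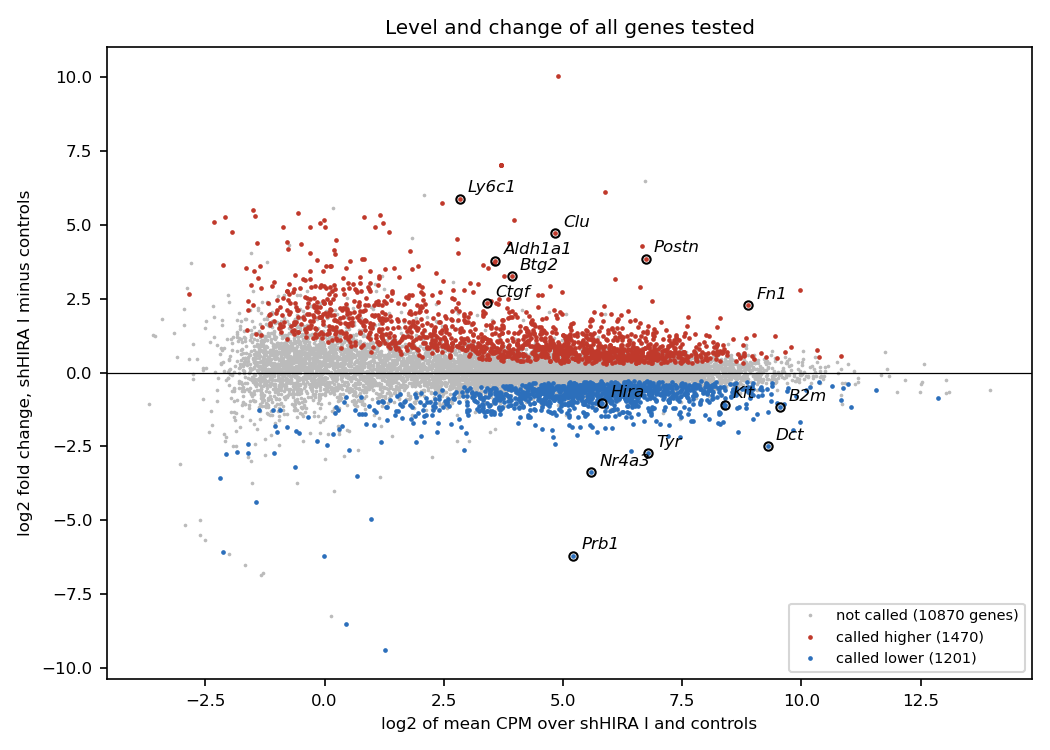
Each point is 1 of the 13541 genes tested, with log2 of mean CPM over shHIRA I and controls on the x axis and log2 fold change of shHIRA I minus controls on the y axis; grey genes were not called, red were called higher and blue lower. Clu, Postn, Aldh1a1 and Btg2 lie among the higher genes and Tyr, Dct and Nr4a3 among the lower, and Hira lies at -1.05.

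The 10 largest rises under the naming rule included genes of secreted proteins, retinaldehyde dehydrogenases and surface antigens. For rises and falls, that rule admitted only genes whose shHIRA I libraries all lay outside the control range. Absence of overlap in these genes was thus a condition of their choice. Clu, which encodes the secreted chaperone clusterin (chr14:65968483-65981547, plus strand), was at 38.4, 71.8, 76.6 and 33 CPM, against 0.652 to 7.33 CPM in the controls with a median of 1.25. The groups did not overlap, although shLuciferase replicate 2 held the highest control value, and the difference was a log2 fold change of 4.72, SE 0.50, edgeR adjusted p = 4.76e-06. Postn, encoding the matrix protein periostin (chr3:54361109-54391037, plus strand), read 112, 457, 66.2 and 162 CPM and 6.82 to 40.2 CPM in the controls with a median of 9.97. Replicate 2 was highest and replicate 3 lowest, and all exceeded the highest control. Its change was a log2 fold change of 3.86, SE 0.46, edgeR adjusted p = 1.38e-05. Col1a1, the main fibrillar collagen chain of connective tissue, was at 25.5, 18, 22 and 7.47 CPM against 0.312 to 7.43 CPM in the controls with a median of 0.760. The lowest shHIRA I value and the highest control, again shLuciferase replicate 2, nearly met. The estimate was a log2 fold change of 3.65, SE 0.57, edgeR adjusted p = 0.000201. Ccdc80, a secreted matrix-associated protein, rose with a log2 fold change of 4.05, SE 0.74, edgeR adjusted p = 0.00076. Leaving out shLuciferase replicate 2 gave log2 fold changes of 5.43 for Clu, 4.32 for Col1a1 and 5.25 for Ccdc80, and leaving out shHIRA I replicate 2 gave 3.04 for Postn. Without shScramble replicate 1 the value of Ccdc80 was 4.87.

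Aldh1a1, a retinaldehyde dehydrogenase that makes retinoic acid (chr19:20492715-20643465, plus strand), was at 20.1, 20.9, 17.9 and 30.4 CPM, against 0.512 to 2.62 CPM in the controls with a median of 1.37. Every shHIRA I library lay well above every control, with little spread (log2 fold change of 3.79, SE 0.37, edgeR adjusted p = 2.35e-06). Its neighbour in sequence Aldh1a7 shares 13.8% of 31-mers with it, so a part of the reads may be assigned to either, and it rose likewise (log2 fold change of 3.72, SE 0.32, edgeR adjusted p = 6.14e-07). Btg2, an antiproliferative gene that p53 and growth signals induce (chr1:134075170-134079120, minus strand), is given as a marker of the contrast and was not among the 10 largest rises. It read 27, 29.6, 32.4 and 20.9 CPM and 2.12 to 5.69 CPM in the controls with a median of 2.55. Its 4 libraries lay within a narrow range and none overlapped the controls (log2 fold change of 3.26, SE 0.22, edgeR adjusted p = 4.39e-08). Slamf9, a surface receptor of the SLAM family, rose most in replicate 3 (8.00, 9.82, 24.8 and 9.70 CPM, against 0.204 to 1.68 CPM in the controls with a median of 0.378, log2 fold change of 4.53, SE 0.44, edgeR adjusted p = 2.14e-06). Serpinb9b, a serpin protease inhibitor, rose at low level (log2 fold change of 4.11, SE 0.34, edgeR adjusted p = 4.97e-07).

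Ly6a and Ly6c1, surface antigens of the Ly6 family whose transcripts resemble each other (31.9% and 46.8% of 31-mers shared with other genes), reached high levels in 1 library. Ly6c1 was at 1.15, 47.1, 2.74 and 5.15 CPM, against 0.0569 to 0.792 CPM in the controls with a median of 0.154. Ly6a was at 0.889, 35.8, 2.81 and 4.11 CPM, against 0 to 0.673 CPM in the controls with a median of 0.171. Replicate 2 was many times above the others for both genes. That the other replicates also exceeded every control was required by the naming rule. Without replicate 2 the log2 fold change of Ly6c1 was 3.68, edgeR adjusted p = 0.00269, and that of Ly6a 3.68, edgeR adjusted p = 0.000649, so both calls held at a smaller size. Without shLuciferase replicate 2 Ly6c1 was at 6.55.

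**Figure D2:**
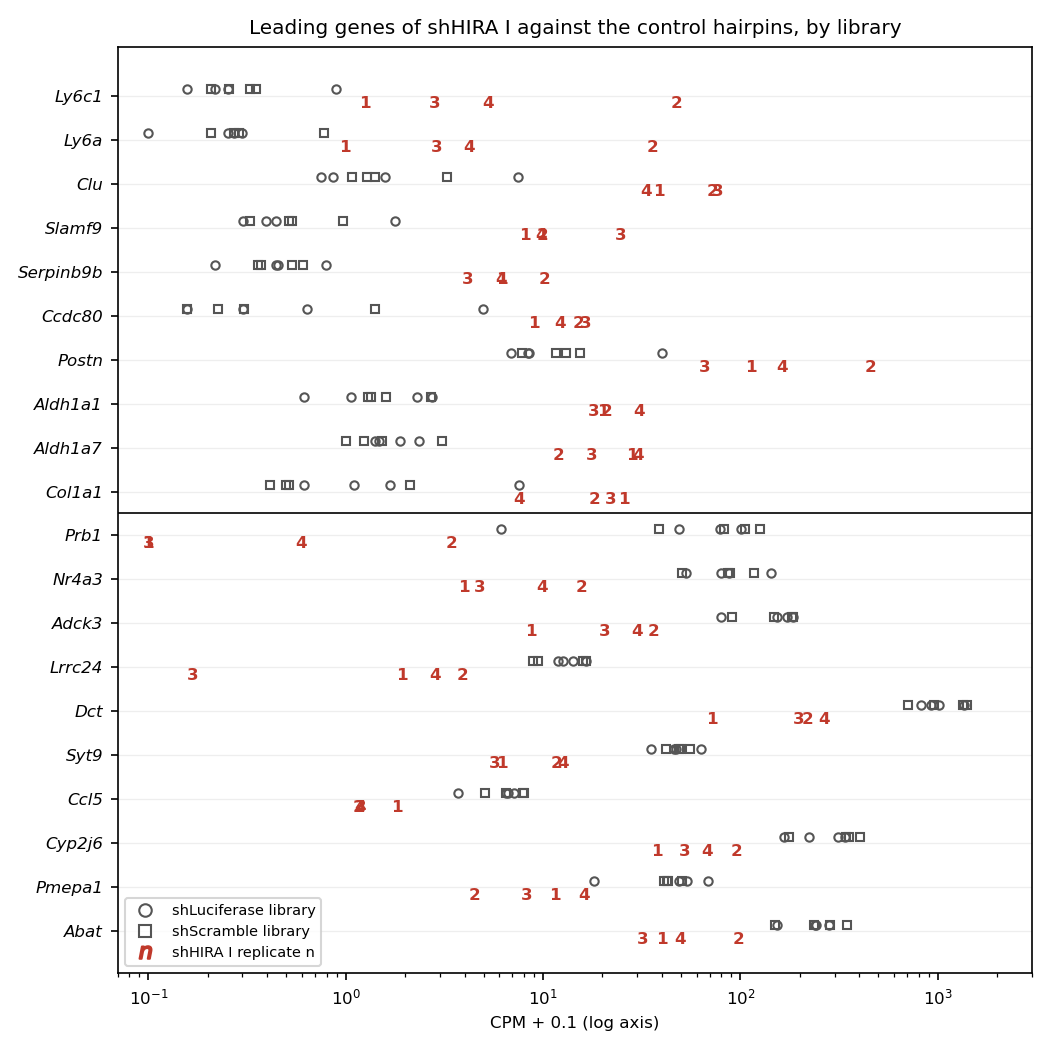
The 10 genes with the largest rises (top) and the 10 with the largest falls (bottom) by the naming rule, with CPM + 0.1 on a log axis; red numerals are the shHIRA I replicates, open circles the shLuciferase libraries and open squares the shScramble libraries. Red numerals lie outside the control symbols in every row because the naming rule required it. Replicate 2 is the highest for Ly6c1, Ly6a and Postn.

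Among the leading falls, Nr4a3 (chr4:48045153-48086447, plus strand), an orphan nuclear receptor and immediate early gene, was at 3.87, 15.5, 4.65 and 9.80 CPM, against 50.5 to 143 CPM in the controls with a median of 86.6. Replicates 1 and 3 were lowest, and no replicate reached the lowest control (log2 fold change of -3.38, SE 0.41, edgeR adjusted p = 1.84e-05). Prb1, a gene of the proline-rich salivary protein family, was listed at 0 in replicates 1 and 3 and read 3.35 and 0.495 CPM in replicates 2 and 4, against 5.99 to 126 CPM in the controls with a median of 81. It shares 44.5% of its 31-mers with relatives, and its change was a log2 fold change of -6.20, SE 1.03, edgeR adjusted p = 0.000327, or -8.57 without replicate 2. Adck3, a mitochondrial kinase-like protein of coenzyme Q synthesis, fell (log2 fold change of -2.66, SE 0.36, edgeR adjusted p = 4.99e-05), as did Abat, which breaks down GABA (log2 fold change of -2.14, SE 0.33, edgeR adjusted p = 0.000163).

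Dct, dopachrome tautomerase of the pigment pathway, was at 71.7, 217, 196 and 264 CPM against 709 to 1406 CPM in the controls with a median of 985, without overlap. Syt9, a synaptotagmin of vesicle release, was at 6.12, 11.6, 5.61 and 12.5 CPM, against 35 to 63.1 CPM in the controls with a median of 47.8, without overlap (log2 fold change of -2.43, SE 0.25, edgeR adjusted p = 2.95e-06). Ccl5, a chemokine, fell from a low level (1.73, 1.06, 1.09 and 1.09 CPM, against 3.61 to 7.92 CPM in the controls with a median of 6.49, log2 fold change of -2.34, SE 0.29, edgeR adjusted p = 2.24e-05). Cyp2j6, a cytochrome P450, fell (log2 fold change of -2.19, SE 0.28, edgeR adjusted p = 2.77e-05), as did Lrrc24, a leucine-rich repeat protein (log2 fold change of -2.63, SE 0.48, edgeR adjusted p = 0.000707). Pmepa1, which TGF-beta induces and which restrains its signalling, was at 11.4, 4.41, 8.21 and 16 CPM, against 18 to 68.8 CPM in the controls with a median of 45.7 (log2 fold change of -2.18, SE 0.33, edgeR adjusted p = 0.000128).

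Among pigment synthesis and melanosome genes most calls were lower. In all, 1 of 33 tested members were called higher and 13 lower, with a median log2 fold change of -0.40. Over all genes 8.87% were lower and the median was 0.05. Tyr, tyrosinase, the first enzyme of melanin synthesis, was at 10.5, 52.9, 20.5 and 31.2 CPM, against 51.1 to 309 CPM in the controls with a median of 202. Replicate 2 lay within the control range and the others under it (log2 fold change of -2.73, SE 0.47, edgeR adjusted p = 0.000444). Dct fell (log2 fold change of -2.51, SE 0.30, edgeR adjusted p = 1.76e-05), and lay below every control in all 4 libraries, as the naming rule required. Tyrp1, the third enzyme of the family, read 368, 2138, 588 and 1703 CPM against 1317 to 3712 CPM in the controls with a median of 2594. It did not pass the test (log2 fold change of -1.05, SE 0.42, edgeR adjusted p = 0.0866). The melanosome matrix protein Pmel (log2 fold change of -1.65, SE 0.32, edgeR adjusted p = 0.00131), the melanosomal G protein-coupled receptor Gpr143 (-1.77), the cargo GTPase Rab38 (-1.75), the tetraspanin Tspan10 (-1.63) and the ion exchanger Slc24a5 (-1.59) also fell. Gpnmb, a glycoprotein of late melanosomes, was the 1 member called higher (log2 fold change of 0.55, SE 0.17, edgeR adjusted p = 0.0248). That call was lost on omitting shHIRA I replicate 2, 3 or 4 (0.47, edgeR adjusted p = 0.0871, without replicate 4). In single libraries the list median stood at -1.36, -0.26, -1.22 and -0.48 in replicates 1 to 4 relative to the control mean. Leaving out replicate 3, 15 members were called lower and 0 higher, with a median of -0.61, and leaving out each library of the comparison in turn gave 11 to 15 lower. For Mitf (log2 fold change of -0.53, SE 0.21, edgeR adjusted p = 0.0809) and Mlana (log2 fold change of -0.59, SE 0.21, edgeR adjusted p = 0.0556) the difference did not pass the test.

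MITF binds the E-box CATGTG, the M-box of pigment gene promoters, and the promoters of called pigment genes are shown for this motif. In RefSeq's table (250 bases before to 50 after each start), searched on both strands, 4 of the 9 promoters of 8 matched called-lower pigment genes held CATGTG, against 8.89% of the 12439 promoters of genes tested. The related E-box CACGTG was in 2 of the 9, against 9.6%. Over the whole pigment list, called or not, CATGTG was in 9 of 30 promoters and CACGTG in 9 of 30. The 4 called-lower promoters with CATGTG are given here from GRCm38.p6, upstream of the start. They read 5′ to 3′ on the gene's strand, with the motif or its reverse complement in capitals.
Tyr: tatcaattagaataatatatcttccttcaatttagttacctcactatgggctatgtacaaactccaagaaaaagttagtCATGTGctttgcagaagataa
Dct: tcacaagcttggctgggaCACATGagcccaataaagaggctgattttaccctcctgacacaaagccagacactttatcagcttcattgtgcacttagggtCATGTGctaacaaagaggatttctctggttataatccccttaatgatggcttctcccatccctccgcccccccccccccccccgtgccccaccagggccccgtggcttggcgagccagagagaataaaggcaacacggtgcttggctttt
Tspan10: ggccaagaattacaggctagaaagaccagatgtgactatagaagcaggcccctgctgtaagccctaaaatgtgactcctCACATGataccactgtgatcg
Slc24a5: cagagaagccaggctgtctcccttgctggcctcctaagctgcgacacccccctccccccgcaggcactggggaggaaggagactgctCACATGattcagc
The windows, counted from the RefSeq start, are chr7:87493513-87493612 (minus strand, Tyr), chr14:118052247-118052496 (minus strand, Dct), chr11:120442531-120442630 (plus strand, Tspan10) and chr2:125068027-125068126 (plus strand, Slc24a5), and the motif begins at bases -21, -232 and -150, -21 and -13 from the start. A match describes these letters in this window and not a bound site.

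Regulators of melanocytes and the neural crest went both ways, where 10.9% of all genes were called higher and 8.87% lower. Of 26 tested members 6 were called higher and 8 lower, with a median log2 fold change of -0.36. Without shHIRA I replicate 1, 5 were lower. Kit, the SCF receptor, was at 165, 236, 92.4 and 363 CPM, against 365 to 553 CPM in the controls with a median of 450.0. It lay just under the controls in replicate 4 (log2 fold change of -1.09, SE 0.30, edgeR adjusted p = 0.0128). Without replicate 1 it read -0.99, edgeR adjusted p = 0.0506. Irf4, which cooperates with MITF at Tyr (log2 fold change of -1.40, SE 0.22, edgeR adjusted p = 0.000217), Bhlhe40, a transcriptional repressor (log2 fold change of -1.19, SE 0.17, edgeR adjusted p = 0.000108), and Ets1 (-1.08) fell. The neural crest factors Tfap2b (log2 fold change of 1.31, SE 0.19, edgeR adjusted p = 0.000102) and Snai2 (1.25), and Lef1 of Wnt signalling (0.99), rose. Msx1 rose from a control median of 0.116 CPM to no more than 0.732 CPM and Kitl, the SCF gene, reached at most 1.00 CPM, so both remained at trace level, and the call of Kitl was lost in most refits without 1 library. Pax3, a regulator that melanoblasts share with the neural crest, did not pass the test (log2 fold change of 0.09, SE 0.14, edgeR adjusted p = 0.687).

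Immediate early genes, transcribed within minutes of growth or stress signals, divided: 11 of 34 tested members were called higher and 6 lower, with a median log2 fold change of 0.30, where 10.9% and 8.87% of all genes were called. Nr4a1, closest relative of Nr4a3, fell without overlap of groups (24.4, 23.6, 26 and 28 CPM, against 28.2 to 48.3 CPM in the controls with a median of 35.6, log2 fold change of -0.55, SE 0.14, edgeR adjusted p = 0.00963). Atf3, a stress-induced repressor, rose (log2 fold change of 1.92, SE 0.36, edgeR adjusted p = 0.000824), as did Ier5 (1.46), Fosl2 (1.35) and Jun (0.70). Jund rose, with replicate 3 at 477 CPM against 161 to 205 CPM in replicates 1, 2 and 4 and 82.8 to 153 CPM in the controls (1.23). Fos itself read 11.2, 5.69, 5.34 and 12.6 CPM, against 5.85 to 22.6 CPM in the controls with a median of 7.71, and was not called. The MAPK feedback list had 9 of 25 tested members called higher and 3 lower, with a median log2 fold change of 0.21, and 5 lower without shLuciferase replicate 2. The phosphatases Dusp8 (log2 fold change of 2.95, SE 0.26, edgeR adjusted p = 6.93e-07) and Dusp16 (1.67) rose. Dusp6, a direct ERK target, fell (log2 fold change of -1.24, SE 0.29, edgeR adjusted p = 0.00493). Dusp1 was highest in replicate 2 (22.3, 109, 25.9 and 26.8 CPM, log2 fold change of 1.83, SE 0.35, edgeR adjusted p = 0.000955).

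The cyclic AMP response element letters TGACG were in 3 of 12 promoters of called-higher and 3 of 4 promoters of called-lower members of the immediate early list, against 29.4% of promoters of tested genes. The palindrome TGACGTCA was in 1 of the 12 and 0 of the 4, against 2.94%. Over the whole list, called or not, TGACG was in 28 of 46 promoters and TGACGTCA in 2 of 46. The promoters of Nr4a3, which fell, and Btg2, which rose, both hold TGACG, printed in capitals.
Nr4a3: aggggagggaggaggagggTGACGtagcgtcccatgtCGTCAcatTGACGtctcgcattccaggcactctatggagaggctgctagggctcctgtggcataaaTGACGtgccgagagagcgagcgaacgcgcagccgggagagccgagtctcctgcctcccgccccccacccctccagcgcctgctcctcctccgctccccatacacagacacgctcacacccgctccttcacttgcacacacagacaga
Btg2: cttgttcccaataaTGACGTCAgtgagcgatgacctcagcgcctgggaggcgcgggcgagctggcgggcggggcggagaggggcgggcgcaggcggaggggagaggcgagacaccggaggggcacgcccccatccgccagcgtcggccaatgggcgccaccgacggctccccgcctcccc
The windows, counted from the RefSeq start, are chr4:48045055-48045304 (plus strand, Nr4a3) and chr1:134079156-134079335 (minus strand, Btg2) in GRCm38.p6. TGACG or its reverse complement starts at bases -231, -213, -205 and -147 in Nr4a3 and at -166 and -163 in Btg2, where the 2 matches overlap in the full palindrome TGACGTCA.

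Retinoid genes gave 6 of 27 tested members called higher and 3 lower, with a median log2 fold change of 0.14. The share lower was near the 8.87% of all genes, and 10.9% of all genes were higher. Beside Aldh1a1 and Aldh1a7, the alcohol dehydrogenases that oxidise retinol rose. Adh1 was at 16.1, 66.5, 98.1 and 39.6 CPM against 5.75 to 13.8 CPM in the controls with a median of 7.99 (log2 fold change of 2.74, SE 0.31, edgeR adjusted p = 9.98e-06). Adh7 had a log2 fold change of 1.42, SE 0.17, edgeR adjusted p = 1.42e-05. Rxrg, a retinoid X receptor, fell from a control median of 3.28 CPM to at most 0.544 CPM (log2 fold change of -3.50, SE 0.62, edgeR adjusted p = 0.000531), and Lrat, which esterifies retinol, fell at low level (-1.18). Aldh1a1, Aldh1a7, Adh1 and Adh7 were among the 6 members above all controls in all 4 replicates, against 4.62% of all genes. Another 3 members lay below all controls, against 4.52%.

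Many genes of the extracellular matrix rose. Of matricellular and matrix glycoproteins, 28 of 53 tested members were called higher and 0 lower, with a median log2 fold change of 0.84, against 10.9% higher over all genes. Fn1, fibronectin, was at 1246, 633, 370.1 and 877 CPM, against 57.8 to 407 CPM in the controls with a median of 91.9. Replicate 3 lay within the control range, whose highest member was shLuciferase replicate 2 (log2 fold change of 2.28, SE 0.41, edgeR adjusted p = 0.000703). Ctgf, a YAP target in the matrix, was at 16.5, 14.2, 14.4 and 26.1 CPM, against 1.65 to 6.63 CPM in the controls with a median of 2.28, without overlap (log2 fold change of 2.34, SE 0.35, edgeR adjusted p = 0.000146). Sparc (1.24), a calcium-binding matrix protein, and Fmod (2.49) rose, and so did Eln, elastin, with replicate 2 the lowest (15.2, 2.51, 36.5 and 12.2 CPM; log2 fold change of 2.99, SE 0.53, edgeR adjusted p = 0.000616). Lox, which crosslinks collagen, was called at levels of at most 3.02 CPM. With shLuciferase replicate 2 left out 30 members were called higher. Without shHIRA I replicate 2 the count was 27 higher and 1 lower, and with both and replicate 3 left out it was 28 and 0.

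Where 10.9% of all genes were called higher and 8.87% lower, collagen chains gave 16 of 40 tested members higher and 2 lower. Their median log2 fold change was 0.68. Leaving out 1 library gave 13 to 16 higher, and the median was 0.40 without shHIRA I replicate 2 and 0.44 without replicate 3. Col5a1, a regulator of fibril assembly, was at 247, 145, 247 and 140.5 CPM, against 21.9 to 83.2 CPM in the controls with a median of 31.5 (log2 fold change of 2.41, SE 0.25, edgeR adjusted p = 4.2e-06). Of integrins and laminins, 12 of 28 tested members were called higher and 5 lower, with a median log2 fold change of 0.61, with 3 lower on omitting shLuciferase replicate 3 or 4, shScramble replicate 4 or shHIRA I replicate 1 or 3. Itga3 rose (1.30) and Itgb4, of hemidesmosomes, fell (-1.31). The matrix list medians in single libraries were 0.84, 0.80, 0.60 and 0.75 for matricellular genes and 0.52, 0.71, 0.53 and 0.31 for collagens in replicates 1 to 4. In shLuciferase replicate 2 they stood at 0.58 and 0.41, above the other 7 controls. That library was also low in the S phase (-0.75) and G2 and mitosis (-0.99) lists, as was shHIRA I replicate 2 (-0.46 and -1.03). Of the fibroblast markers, Thy1 was at 0 in every library of the comparison, Dpt at 0 in all shHIRA I libraries and Col3a1 at no more than 1.12 CPM. Of the 5 fibroblast markers tested, decorin (Dcn, 1.34) and Pdgfrb (1.11) were called higher. Fap was lower at a mean of 0.117 against 0.841 CPM, and Pdgfra and Lum were not called. The median log2 fold change of the 5 was -0.10. In replicates 1 to 4 their median stood at -1.79, 1.08, -1.07 and 0.02 relative to the control mean. The part of these libraries and of such cells in the matrix result was not tested.

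**Figure D3:**
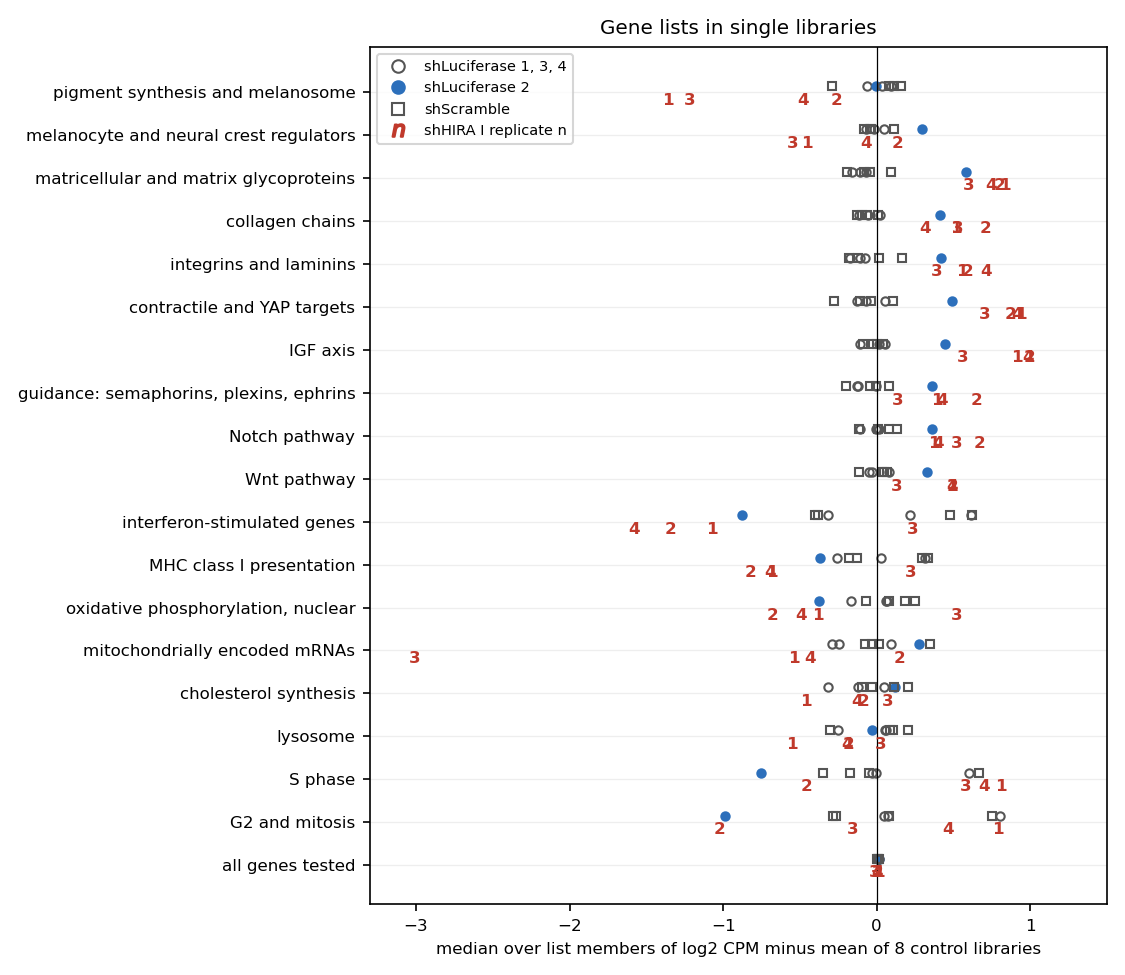
For each gene list, the median over its tested members of log2 CPM minus the mean of the 8 control libraries is plotted on the x axis for single libraries; red numerals are shHIRA I replicates, open symbols control libraries and the filled circle shLuciferase replicate 2. Replicate 3 stands apart in the interferon (0.23), oxidative phosphorylation (0.52) and mitochondrially encoded lists, while matrix medians are above 0 in all 4 replicates.

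YAP is a coactivator that works through TEAD factors and reads cell shape and stiffness. Among contractile genes and YAP targets, 18 of 29 tested members were called higher and 0 lower, with a median log2 fold change of 0.96, against 10.9% higher over all genes. The calls were 12 of 17 contractile genes and 6 of 12 YAP targets, and 11 members did not pass the test. Ajuba, a LIM protein of the Hippo pathway, was at 122, 73.2, 153 and 82.9 CPM, against 23 to 49.4 CPM in the controls with a median of 28.3, without overlap (log2 fold change of 1.73, SE 0.20, edgeR adjusted p = 1.15e-05). Zyx, zyxin of focal adhesions, had a log2 fold change of 1.58, SE 0.21, edgeR adjusted p = 5.18e-05, and Amotl2, an angiomotin that binds YAP, a log2 fold change of 1.10, SE 0.12, edgeR adjusted p = 7.67e-06. Acta2, smooth muscle actin, was at 51.1, 79, 48.4 and 46.1 CPM, and the highest control, shLuciferase replicate 2 at 64.6 CPM, lay within that range (log2 fold change of 1.35, SE 0.30, edgeR adjusted p = 0.00397). Tagln (1.22), Cyr61 (1.52) and Axl (0.65) also rose. Ankrd1 and Myl9 were called on levels of at most 0.732 and 2.53 CPM, with controls mostly near 0, so no fold is given. Without replicate 3, 22 members were called higher, and without shHIRA I replicates 2 and 3 and shLuciferase replicate 2, 21.

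TEAD factors bind GGAATG, and of the 17 promoters of 16 matched genes called higher 11 held GGAATG on either strand, against 12.3% of promoters of tested genes. Over the whole list, called or not, 15 of 30 promoters held it. Genes of such lists include many that were named TEAD targets from other cells. The promoters of Ajuba, Amotl2, Acta2 and Tpm1, a tropomyosin (log2 fold change of 0.93, SE 0.16, edgeR adjusted p = 0.0004), are shown with the motif in capitals.
Ajuba: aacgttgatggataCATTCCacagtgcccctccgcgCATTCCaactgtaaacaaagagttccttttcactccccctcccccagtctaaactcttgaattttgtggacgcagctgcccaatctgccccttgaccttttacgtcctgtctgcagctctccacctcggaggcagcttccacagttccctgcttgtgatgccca
Amotl2: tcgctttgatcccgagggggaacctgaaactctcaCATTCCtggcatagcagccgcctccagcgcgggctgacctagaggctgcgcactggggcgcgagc
Acta2: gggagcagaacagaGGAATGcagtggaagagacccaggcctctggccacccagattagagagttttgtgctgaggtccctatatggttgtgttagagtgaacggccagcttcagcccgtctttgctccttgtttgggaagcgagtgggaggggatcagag
Tpm1: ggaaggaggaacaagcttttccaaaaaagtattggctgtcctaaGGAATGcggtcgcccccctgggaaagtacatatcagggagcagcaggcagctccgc
These windows are chr14:54577662-54577861 (minus strand, Ajuba), chr9:102717704-102717803 (plus strand, Amotl2), chr19:34255374-34255533 (minus strand, Acta2) and chr9:67049214-67049313 (minus strand, Tpm1).

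The signalling lists are read against the 10.9% of all genes called higher and 8.87% called lower. Notch genes gave 7 of 26 tested members called higher and 0 lower, with a median log2 fold change of 0.40, and 2 lower without shHIRA I replicate 3. Of 7 promoters of the called Notch genes 2 held TGGGAA, the letters that RBPJ binds, against 23.2% of promoters of tested genes. Over the whole Notch list, called or not, 9 of 32 promoters held it. The ligand Dll1 was at 23.5, 31.1, 41.6 and 27 CPM, against 4.74 to 17 CPM in the controls with a median of 7.16 (log2 fold change of 1.90, SE 0.29, edgeR adjusted p = 0.000142). The glycosyltransferase Lfng, which tunes ligand choice, rose (log2 fold change of 2.79, SE 0.35, edgeR adjusted p = 2.55e-05). The target Hey2 rose (log2 fold change of 1.78, SE 0.18, edgeR adjusted p = 2.95e-06), while the target Hes1 did not pass the test (-0.26). Wnt genes gave 12 of 32 tested members called higher and 1 lower, with a median log2 fold change of 0.48. Among these were the receptor Fzd4 (1.46), the ligand Wnt11 (2.53) and the feedback inhibitor Nkd1 (1.71), all higher. Of insulin-like growth factor genes, 7 of 11 tested members were called higher and 0 lower, with a median log2 fold change of 0.78. Igf1, the ligand, was at 4.08, 15.3, 5.06 and 8.51 CPM, against 0.743 to 1.99 CPM in the controls with a median of 1.29 (log2 fold change of 2.63, SE 0.50, edgeR adjusted p = 0.000942). Without shHIRA I replicate 2 the IGF count was 3 higher, and without replicate 4 it was 4. Among the calls lost without replicate 2 was that of Igfbp5, a binding protein (0.79, edgeR adjusted p = 0.26). It read 57.1 CPM in replicate 2 and 4.39 to 7.94 CPM in the other replicates. Guidance genes gave 14 of 43 tested members called higher and 2 lower, with a median log2 fold change of 0.39. Those higher included the ephrin receptor Epha4 (log2 fold change of 2.34, SE 0.27, edgeR adjusted p = 1.3e-05) and the plexin Plxna2 (1.80). TGF-beta and BMP genes gave 8 of 38 tested members called higher and 4 lower, with a median log2 fold change of 0.17, so that the share called lower was near that over all genes. The count was 5 higher and 2 lower without shHIRA I replicate 1 and 4 higher without replicate 4, and it was 2 lower without shLuciferase replicate 1 or 3 or shScramble replicate 3 or 4. The repressor Ski rose (log2 fold change of 1.18, SE 0.16, edgeR adjusted p = 5.31e-05), and Smad5 (-1.0), a BMP signal transducer, fell. The chemokine receptor Ackr3 (log2 fold change of 2.07, SE 0.17, edgeR adjusted p = 3.43e-07) and the growth factor Csf1 (0.98) rose.

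Interferon-stimulated genes, which are switched on by antiviral signalling, gave a count that moved with several single libraries. With all libraries 0 of 52 tested members were called higher and 12 lower, with a median log2 fold change of -0.65, against 8.87% lower over all genes. Without shHIRA I replicate 3 the count was 33 lower and 0 higher, with a median of -1.41, and without shLuciferase replicate 2 it was 20 lower and 1 higher. It fell to 6 lower without shHIRA I replicate 2, 5 without replicate 4 and 7 without shLuciferase replicate 4. The core of the interferon-stimulated response element was in 5 of 8 promoters of called members, against 2.98% of promoters of tested genes. Over the whole list, called or not, it was in 21 of 45 promoters. The list median was -1.07, -1.34, 0.23 and -1.58 in replicates 1 to 4. Ifit1, an effector of the response, was at 31.6, 14.3, 174 and 16.1 CPM, against 37.7 to 222 CPM in the controls with a median of 112. It did not pass the test (log2 fold change of -1.10, SE 0.58, edgeR adjusted p = 0.2). Cmpk2 (21.5, 15.4, 59 and 15.6 CPM) had only replicate 3 within the control range of 49.4 to 143 CPM (log2 fold change of -1.89, SE 0.42, edgeR adjusted p = 0.00368). Relative to parental cells without virus the list was higher with shHIRA I in 34 members and lower in 0, and the controls were higher than parental cells in 42 and lower in 0, where 9.95% and 2.05% of all genes were higher. Of the MHC class I list 2 of 19 tested members were called higher and 5 lower, with a median log2 fold change of -0.29. The share higher was near the 10.9% of all genes. The count was 10 lower without shHIRA I replicate 3, and 3 lower without shHIRA I replicate 2 or 4, shLuciferase replicate 4 or shScramble replicate 3. B2m, the light chain, was at 438, 462, 423 and 512 CPM against 703 to 1531 CPM in the controls with a median of 1047 without overlap (log2 fold change of -1.18, SE 0.20, edgeR adjusted p = 0.000444). Psmb10, an immunoproteasome subunit, fell (log2 fold change of -1.38, SE 0.21, edgeR adjusted p = 0.000151).

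Nuclear genes of oxidative phosphorylation behaved likewise, where 10.9% of all genes were called higher and 8.87% lower. Of 68 tested members 1 was called higher and 14 lower, with a median log2 fold change of -0.18. Without shHIRA I replicate 3, 41 were lower and 0 higher, with a median of -0.55, and without replicate 2, 9 were lower with a median of -0.01. Ndufs8, a complex I subunit, was at 37, 29.2, 27.2 and 27.9 CPM, against 45.5 to 75.4 CPM in the controls with a median of 70.4 (log2 fold change of -1.16, SE 0.17, edgeR adjusted p = 9.74e-05). Ndufa5, another subunit and the 1 member called higher, was at 415 CPM in replicate 3 and 38.9 to 75.1 CPM in the others, and its change was 0.01, edgeR adjusted p = 0.993, without replicate 3, and -0.24 with the mitochondrial share as covariate. The mitochondrially encoded mRNAs stood at -0.54, 0.15, -3.01 and -0.43 in the replicates, and 1 of 13, mt-Co2, was called lower (log2 fold change of -0.85, SE 0.29, edgeR adjusted p = 0.0481). That call was lost in most refits without 1 library, with -0.57, edgeR adjusted p = 0.0858 without replicate 3, while 4 members were lower without replicate 2. In the model with that share as covariate, 53 nuclear oxidative phosphorylation genes, 33 interferon genes and 11 MHC genes were called lower, and 1 interferon gene higher, and that model called 13.0% of all genes lower and 13.0% higher.

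**Figure D4:**
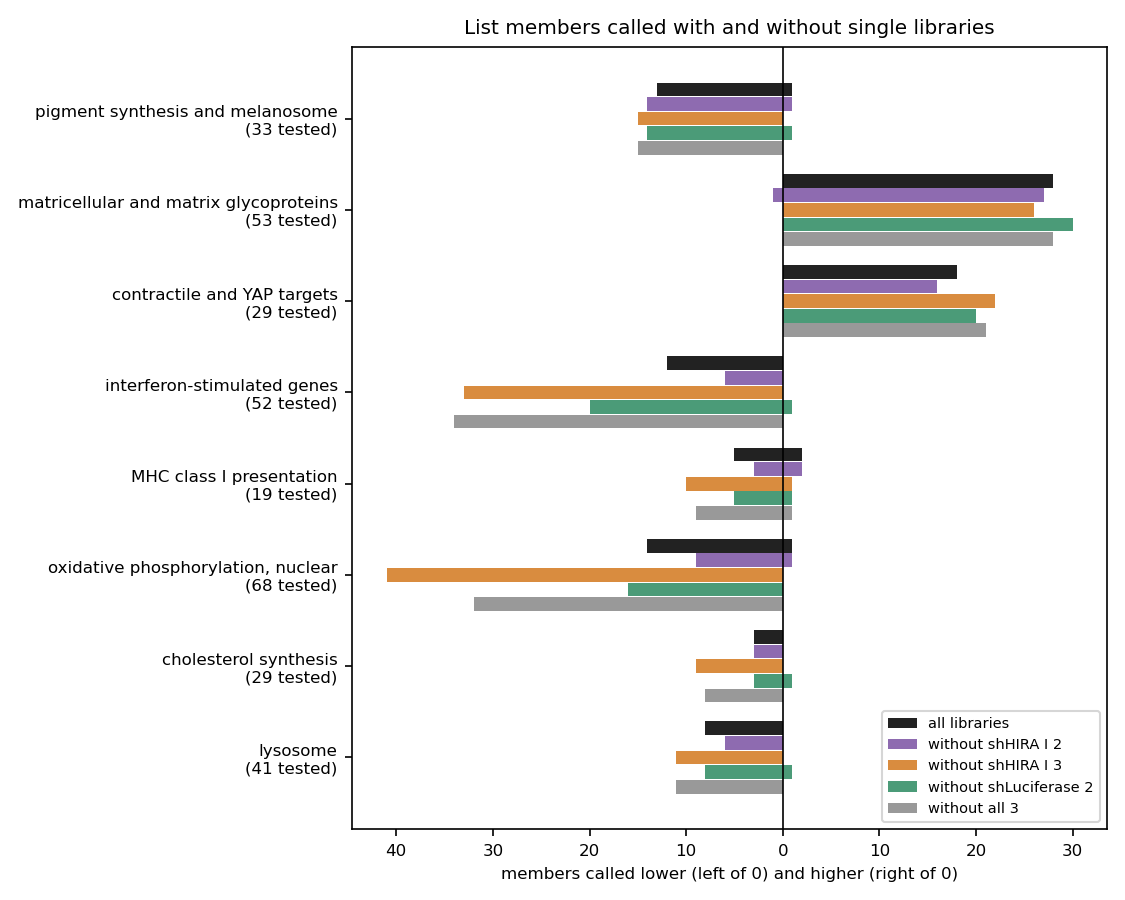
Bars give the number of tested list members called lower (left of 0) and higher (right of 0) with all libraries, and with shHIRA I replicate 2, shHIRA I replicate 3, shLuciferase replicate 2 or these 3 left out. Pigment, matricellular and contractile counts stayed between 13 and 30, while interferon counts ran from 6 to 34 lower and oxidative phosphorylation counts from 9 to 41 lower.

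Cell cycle and histone lists differed in their counts, where 10.9% of all genes were called higher and 8.87% lower. Of S phase genes, 6 of 48 tested members were called higher and 0 lower, with a median log2 fold change of 0.38. That count moved by 1.5 times or more with every library left out but shLuciferase replicate 1. Omitting shHIRA I replicate 2 gave 14 and omitting shScramble replicate 1 gave 12. It was 1 without shHIRA I replicate 1 and 2 or 3 without shHIRA I replicate 3 or 4, shLuciferase replicate 2, 3 or 4, or shScramble replicate 2, 3 or 4. With shHIRA I replicates 2 and 3 and shLuciferase replicate 2 all omitted it was 16. Of 48 G2 and mitosis genes 1 was called, Wee1, a kinase that holds CDK1 back (log2 fold change of 0.69, SE 0.20, edgeR adjusted p = 0.0173), and 4 were called without shHIRA I replicate 2. Of CDK inhibitors and cyclins, 4 of 20 tested members were called higher and 1 lower, with a median log2 fold change of 0.15. Ccnd3 (log2 fold change of 1.28, SE 0.14, edgeR adjusted p = 4.88e-06) and Cdkn2a (0.90), a cell cycle inhibitor gene, rose. Ccnd2 fell (log2 fold change of -0.76, SE 0.12, edgeR adjusted p = 0.000277). Cdkn1a, a p53 target, was not called at 13.9, 8.64, 33.3 and 13.8 CPM, against 10.2 to 21.5 CPM in the controls with a median of 18.4. In Cdkn2a replicate 3 stood at 342 CPM and the others at 117 to 122 CPM, and the call was lost without it (0.35, edgeR adjusted p = 0.12). The call of Wee1 was lost without shHIRA I replicate 1 or 4 (0.57, edgeR adjusted p = 0.0857, without replicate 1). Of 32 p53 targets tested, 4 were called higher and 1 lower. The counts were 5 higher and 5 lower without shHIRA I replicate 2, and 2 higher without replicate 3. Sco2 was listed at 0 in all 4 shHIRA I libraries, against 0 to 4.57 CPM in the controls, with 66.2% of its 31-mers shared with Tymp. Of replication-dependent histones, whose mRNAs mostly lack a poly(A) tail, 1 of 44 was called, Hist2h2be, which fell (log2 fold change of -1.24, SE 0.23, edgeR adjusted p = 0.000835), and 3 or 4 were lower on omitting shHIRA I replicate 1 or 2 or shScramble replicate 1. Of variant histones outside H3.3, 3 of 8 tested members were called higher and 0 lower, with a median log2 fold change of 0.22, and without shHIRA I replicate 3 the count was 1 higher and 2 lower.

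Lysosome genes gave 0 of 41 tested members called higher and 8 lower, with a median log2 fold change of -0.23, against 8.87% lower over all genes. That count was 3 to 5 lower on omitting shHIRA I replicate 1, shLuciferase replicate 3 or 4 or shScramble replicate 3 or 4. Psap, the saposin precursor, was at 332, 525, 663 and 523 CPM against 763 to 1274 CPM in the controls with a median of 1142 (log2 fold change of -1.08, SE 0.17, edgeR adjusted p = 0.000203). Cholesterol genes gave 0 of 29 tested members called higher and 3 lower, with a median log2 fold change of -0.22. The share called lower was near that of all genes, and 9 were lower without shHIRA I replicate 3 and 5 without shScramble replicate 1. Integrated stress response genes gave 3 of 35 tested members called higher and 2 lower, with a median log2 fold change of 0.01, both shares below those of all genes. The lower count was 8 without shLuciferase replicate 2, 5 without shHIRA I replicate 3, 4 without replicate 1, and 0 without replicate 4 or shLuciferase replicate 3. Ddit3 (-0.50) and Trib3 (-0.39) did not pass the test. Of 19 neuronal genes 7 were tested, and the others were too low for the filter. Of those 7, 5 were called higher and 1 lower, against 10.9% and 8.87% of all genes. Their median log2 fold change was 0.68. The stathmin Stmn4 was at 8.42, 12.7, 13.5 and 5.24 CPM, against 0.662 to 2.43 CPM in the controls with a median of 1.10 (log2 fold change of 3.10, SE 0.53, edgeR adjusted p = 0.000422). Uchl1, a ubiquitin hydrolase, rose (log2 fold change of 2.79, SE 0.32, edgeR adjusted p = 1.06e-05). Among Schwann cell genes 3 of 18 tested members were called higher and 3 lower, with a median log2 fold change of -0.48, and 7 were lower without shHIRA I replicate 2. Prx, periaxin, rose (log2 fold change of 1.56, SE 0.27, edgeR adjusted p = 0.000414).

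The hairpins differed from each other in 2845 genes (21.0% of those tested), 1164 higher (8.6%) and 1681 lower (12.4%) in shHIRA II. Clu was at 5.72 ± 0.894 CPM (SD, n = 4) in shHIRA II, and the difference of shHIRA II minus shHIRA I was log2 -3.26, SE 0.61, edgeR adjusted p = 0.00113. Postn read 21.7 ± 1.33 CPM (SD, n = 4) (difference log2 -3.20, SE 0.58, edgeR adjusted p = 0.000852) and Col1a1 2.16 ± 0.358 CPM (SD, n = 4) (log2 -3.07, SE 0.72, edgeR adjusted p = 0.00531). Btg2 read 10.3 ± 2.23 CPM (SD, n = 4) (log2 -1.42, SE 0.26, edgeR adjusted p = 0.000899), and all of these were lower than with shHIRA I. For Aldh1a1 (log2 -0.90, SE 0.43, edgeR adjusted p = 0.149) and Nr4a3 (log2 -0.35, SE 0.41, edgeR adjusted p = 0.594) the difference did not pass the test. Nor did it for Prb1 (log2 -0.26, SE 1.12, edgeR adjusted p = 0.899) and Dct (log2 -0.22, SE 0.31, edgeR adjusted p = 0.669), which does not show that the hairpins act alike. Of 53 matricellular genes 21 were lower and 0 higher in shHIRA II than in shHIRA I, and of 43 guidance genes 16 were lower and 1 higher. Integrated stress response genes were higher in shHIRA II in 19 of 35 and lower in 1.

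Several genes differed strongly between the hairpins under the naming rule. Lower in shHIRA II were Igfbp5 (log2 -5.11, SE 0.86, edgeR adjusted p = 0.000534) and C1s1, a complement protease (log2 -4.39, SE 0.72, edgeR adjusted p = 0.000397). The carboxypeptidase gene Cpq (log2 -4.41, SE 1.30, edgeR adjusted p = 0.0205), the chloride channel regulator Clca2 (log2 -4.39, SE 0.93, edgeR adjusted p = 0.00259) and Ly6c1 (log2 -4.58, SE 1.11, edgeR adjusted p = 0.0067) were lower too. C1s1 was at 46, 272, 71.1 and 103 CPM with shHIRA I and 5.85 ± 1.20 CPM (SD, n = 4) with shHIRA II, against 4.07 to 53.2 CPM in the controls with a median of 8.99. Higher in shHIRA II were Lmbrd2 (16.4 ± 7.21 CPM, SD, n = 4) and the acetylcholine receptor subunit Chrnb2 (17.9 ± 7.20 CPM, SD, n = 4). The GABA receptor subunit Gabrr2 (5.61 ± 2.24 CPM, SD, n = 4), Lrrc66 (8.71 ± 5.78 CPM, SD, n = 4) and the interferon-induced nucleic acid sensor Zbp1 (5.67 ± 1.08 CPM, SD, n = 4) were higher too. Lmbrd2, Chrnb2, Gabrr2 and Lrrc66 stood at no more than 2.03 CPM in any shHIRA I library, and the controls did not exceed 2.19 CPM. Without shHIRA I replicate 2 the difference in Ly6c1 was -2.37 (edgeR adjusted p = 0.0902) and its call was lost. The calls of Chrnb2, Cpq, Lmbrd2 and Lrrc66 were also lost without some single libraries, with edgeR adjusted p between 0.0506 and 0.0707.

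Relative to parental cells, 1347 genes were higher and 923 lower with shHIRA I (9.95% and 6.82%), and the control hairpins differed from parental cells in 490 (3.62%), 2.05% higher and 1.57% lower. Clu (1.94 ± 1.13 CPM, SD, n = 4 in parental cells) and Btg2 (2.49 ± 0.491 CPM, SD, n = 4) stood near the control level there. Nr4a3 was at 34.5 ± 4.68 CPM (SD, n = 4) and Aldh1a1 at 4.23 ± 2.42 CPM (SD, n = 4), between shHIRA I and the controls. Tyr was at 34.3 ± 3.21 CPM (SD, n = 4), and shHIRA I differed from parental cells by log2 -0.25, SE 0.48, edgeR adjusted p = 0.775. The control hairpins stood above parental cells for Tyr (log2 2.48, SE 0.46, edgeR adjusted p = 0.00545). Dct was at 805 ± 194 CPM (SD, n = 4) and lower with shHIRA I than in parental cells (log2 -2.10, SE 0.32, edgeR adjusted p = 0.000286).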

How the data were processed

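RNA of 20 libraries in 5 groups was sequenced, and the authors deposited an estimated count and a TPM value per gene and library. The tools named are kallisto, bcl2fastq and edgeR, and the build is mm10, per the submitters' processing notes. Their versions: not given in the sources used here. In these files, the deposited TPM and the deposited estimated counts of a gene differ by 1 fixed length and 1 factor per library, so shifts between isoforms do not enter the counts. Of 29956 gene rows, 6990 were 0 throughout and 27 carry spreadsheet dates as names. Columns headed shHIRA with no hairpin numeral were read as shHIRA I, and those headed Ctl as parental cells, the sole groups left over. Samples were grouped by the labels, which call the 4 libraries of each group biological replicates.

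Here the estimated counts were rounded, filtered with filterByExpr, TMM-normalised and fitted in edgeR 4.0.16 (R 4.3.3) by quasi-likelihood over all 20 libraries with 1 mean per group. SE is the size of the log2 fold change divided by the square root of F. The fit was tested on simulated data. Alternatives were DESeq2 1.42.0, limma 3.58.1 on log2(TPM + 1), RLE factors, no filter, a fold of 1.5, only the 12 libraries, each control alone, the mitochondrial share as covariate, a replicate block and leaving out each library. Leaving out single shHIRA II libraries, both libraries of lowest mitochondrial share, or 3 libraries together was added after seeing the data.

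The members and the 35 gene lists were chosen with earlier results of these data known. Genes were named by rule: the 6 markers, the 10 largest rises and falls that passed against both controls without overlap at 5 CPM or more, up to 6 called members of each list with the largest change, uncalled members for their role, and the 5 largest differences between hairpins each way. Acta2, Amotl2, Axl, Ctgf, Cyr61, Ets1, Fn1, Gpnmb, Jun, Kit, Lef1, Nr4a1, Slc24a5, Sparc, Tagln and Tpm1 lie outside that rule and were chosen after their values were seen. Positions are from GENCODE M21, and shared 31-mers were counted over its transcripts, with 16 named genes above 20%. Promoters come from RefSeq, GRCm38.p6. Hairpin sequences are not used here. Intervals and p-values measure the spread between these libraries. Some items are not reported here.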

Additional observations from a re-analysis of the deposited data

Results flagged for a closer look

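For independent, normally distributed values, chance puts a library far from the other 3 in about 1 in 20 groups of 4 libraries. Over the 31 genes named by marker or rank, the mitochondrial share and the library totals, 26 of 99 groups held one. With shHIRA I these were Ccl5 in replicate 1 at 1.73 CPM, Chrnb2 in replicate 4 at 2.03 CPM, Clca2 in replicate 2 at 90.0 CPM, Igfbp5 in replicate 2 at 57.1 CPM, Lmbrd2 in replicate 2 at 1.34 CPM, Lrrc66 in replicate 1 at 1.57 CPM, Ly6a in replicate 2 at 35.8 CPM, Ly6c1 in replicate 2 at 47.1 CPM, Prb1 in replicate 2 at 3.35 CPM and Slamf9 in replicate 3 at 24.8 CPM. In shLuciferase they were Btg2 in replicate 2 at 5.69 CPM, C1s1 in replicate 2 at 53.2 CPM, Ccdc80 in replicate 2 at 4.85 CPM, Chrnb2 in replicate 1 at 2.19 CPM, Clca2 in replicate 2 at 4.21 CPM, Clu in replicate 2 at 7.33 CPM, Col1a1 in replicate 2 at 7.43 CPM, Lmbrd2 in replicate 2 at 1.98 CPM, Ly6c1 in replicate 2 at 0.792 CPM, Postn in replicate 2 at 40.2 CPM and Slamf9 in replicate 2 at 1.68 CPM. In shScramble they were Ccdc80 in replicate 1 at 1.3 CPM, Clu in replicate 3 at 3.16 CPM, Col1a1 in replicate 1 at 2.01 CPM, Gabrr2 in replicate 1 at 0.489 CPM and Ly6a in replicate 3 at 0.673 CPM. Most of the shHIRA I values came from replicate 2, and most of the shLuciferase values from replicate 2 of that group, which was also low in S phase and mitosis genes. The part of those libraries in each gene's change was not tested. These genes were picked for large changes, several lie at low CPM and the same libraries recur. The count of 26 in 99 can therefore not be weighed against 1 in 20.

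The hairpins differed by the edgeR test of shHIRA II minus shHIRA I in 22 of the 31 genes, against 21.0% of all genes tested. Genes named as the 5 largest differences each way were picked by this same test, so their calls were fixed in advance. Log2 differences below 0, where shHIRA II was lower, were Aldh1a7 -1.18, Btg2 -1.42, C1s1 -4.39, Clca2 -4.39, Clu -3.26, Col1a1 -3.07, Cpq -4.41, Igfbp5 -5.11, Ly6a -4.13, Ly6c1 -4.58, Postn -3.20 and Slamf9 -2.05. Log2 differences above 0 were Ccl5 1.48, Chrnb2 5.06, Gabrr2 4.71, Hira 0.86, Lmbrd2 5.58, Lrrc24 2.22, Lrrc66 4.16, Pmepa1 1.47, Syt9 1.17 and Zbp1 3.85.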

How the results depend on the processing

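Counts of genes called higher with shHIRA I were 446 against a fold of 1.5 and 853 against shLuciferase alone. Counts called lower were 163 against a fold of 1.5, 781 with only the 12 libraries and 766 against shLuciferase alone. Calls shared by both controls numbered 735 with the 12 libraries. Leaving out each library gave 1258 to 1619 higher, 907 to 1603 lower, 831 (without shLuciferase replicate 3) to 1716 against each control, with 927 without shLuciferase replicate 4, 1997 to 4430 between hairpins (the highest without shHIRA I replicate 3), 1901 to 2855 against parental cells, -1.17 to -0.92 for Hira and -3.69 to -0.91 points for the mitochondrial share. Among 211 results on single genes, 5191 of 5871 values kept their direction and side of the threshold, 655 lost a call, 22 gained one and 3 turned direction: Ndufa5 (-0.24) and Ubn2 (0.0335) with the mitochondrial share as covariate, and Pax3 (-0.0503) against shLuciferase alone. The cause of these changes was not tested.

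Deviations of libraries with the same replicate number correlated at 0.36 to 0.41 in the 3 pairs of number 1, at 0.10 to 0.19 in those of number 3 and at 0.42 between shLuciferase and shHIRA I replicate 2, but at -0.12 to 0.05 in the other 5 pairs, against -0.24 to 0.24 over 36 pairs of unlike number. Not every library correlated best with its own number, and the pairing was not used. With a replicate block, 1548 genes were called higher and 1410 lower, 1667 against each control, 3147 between hairpins and 2573 against parental cells, and Hira was at -1.06. Genes near 1 CPM rest on few counts, and their folds are uncertain.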
